A study of Homo sapiens with 6 samples.

Results

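HOX genes encode homeodomain transcription factors and lie in 4 clusters of the human genome, HOXA to HOXD. All rows of the deposited table whose gene name is HOX, a cluster letter and a paralog number were taken, which gave 39 genes of 58302 in all: 11 in HOXA, 10 in HOXB, 9 in HOXC and 9 in HOXD. All samples were PC-3, a long-established line of prostate cancer cells derived from a bone metastasis. The BHLHE22 cells carried a lentivirus for overexpression of BHLHE22, a DNA-binding factor of the bHLH (basic helix-loop-helix) family, and the vector cells carried a blank lentivirus. There were 3 libraries in each group. Whether the libraries came from separate cultures, and whether a line was a pool or a clone, is not stated in the labels, so p-values measure the spread between these libraries only.

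Genes at the same place in different clusters are paralogs and share a number from 1 to 13. In embryos the clusters are collinear: genes with low numbers act towards the head and genes with high numbers, the posterior or Abdominal-B type groups 9 to 13, act towards the tail, the limb ends and the urogenital tract. Adult tissues keep part of this code. HOXB13 is the best known member in prostate, where it is expressed through adult life, and HOXA13 takes part in urogenital and limb development. HOX proteins bind DNA with TALE homeodomain partners of the PBX, MEIS and PKNOX families. Polycomb proteins repress and Trithorax proteins maintain their transcription, and retinoic acid induces the low-numbered genes.

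BHLHE22 checked the labels, with 98, 92 and 133 reads in the BHLHE22 libraries against 1 read in each vector library. Total counts were 12186723 to 15808990 in BHLHE22 libraries and 13889050 to 15949537 in vector libraries. HOX genes took 0.0488% to 0.0525% of the reads in BHLHE22 libraries and 0.0787% to 0.0848% in vector libraries. The epithelial markers KRT8, KRT18, EPCAM, CDH1 and KRT19 (1 rose, 2 fell) summed to 229 to 278 FPKM (fragments per kilobase of gene, scaled to the library total) in BHLHE22 cells and 202 to 235 FPKM in vector cells. The prostate secretory gene KLK3 had 0 reads in every library, while the 5 prostate luminal markers summed to 7.64 to 8.93 FPKM in BHLHE22 cells and 15.3 to 18.9 FPKM in vector cells, nearly all TMPRSS2, which fell. Blood markers summed to 9.996 to 11.7 FPKM in BHLHE22 cells and 10.2 to 12.4 FPKM in vector cells, nearly all CD68. The blood markers TYROBP, CD3E and HBB were at 0 in every library. In these bulk libraries fewer cells of a type and less RNA per cell cannot be told apart. Summed levels were 4.33 to 4.53 FPKM in BHLHE22 cells and 5.38 to 6.13 FPKM in vector cells for 5 fibroblast markers (1 rose, 2 fell), where DCN had 5 reads in BHLHE22 cells and 0 in vector cells. The 4 endothelial markers (PECAM1 fell) had 9.07 to 10.6 FPKM in BHLHE22 cells and 12 FPKM in vector cells, where CDH5 and VWF had at most 2 reads in a library. The part of the marker lists in the HOX results was not tested.

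PC-3 cells had a posterior HOX profile. Of the 39 genes, 17 reached a mean of 1 FPKM in at least 1 group. HOXB13 was the most abundant in both groups, with a mean of 50.4 ± 6.5 FPKM in BHLHE22 cells and 95.5 ± 7.7 FPKM in vector cells (SD, n = 3 each). By mean FPKM it ranked 602 among all genes of the table in BHLHE22 cells and 257 in vector cells. HOXA13, HOXA9, HOXA11 and HOXC13 followed, between 7.02 and 12.2 FPKM in BHLHE22 cells and between 13.3 and 26.7 FPKM in vector cells. Every other HOX gene stayed under 5 FPKM in both groups. The HOXD cluster was nearly silent: HOXD9, HOXD10, HOXD11 and HOXD12 had 0 reads in all 6 libraries, where a count of 0 allows up to 3 reads, or 0.188 to 0.246 CPM (counts scaled to the library total) depending on the library; this covers counting error only. HOXD4 was the only HOXD gene with a mean of at least 1 FPKM, at 1.07 ± 0.24 FPKM in BHLHE22 cells and 0.837 ± 0.482 FPKM in vector cells, and 80.5% of its exonic bases also belong to AC009336.2 on the same strand.

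**Figure D1:**
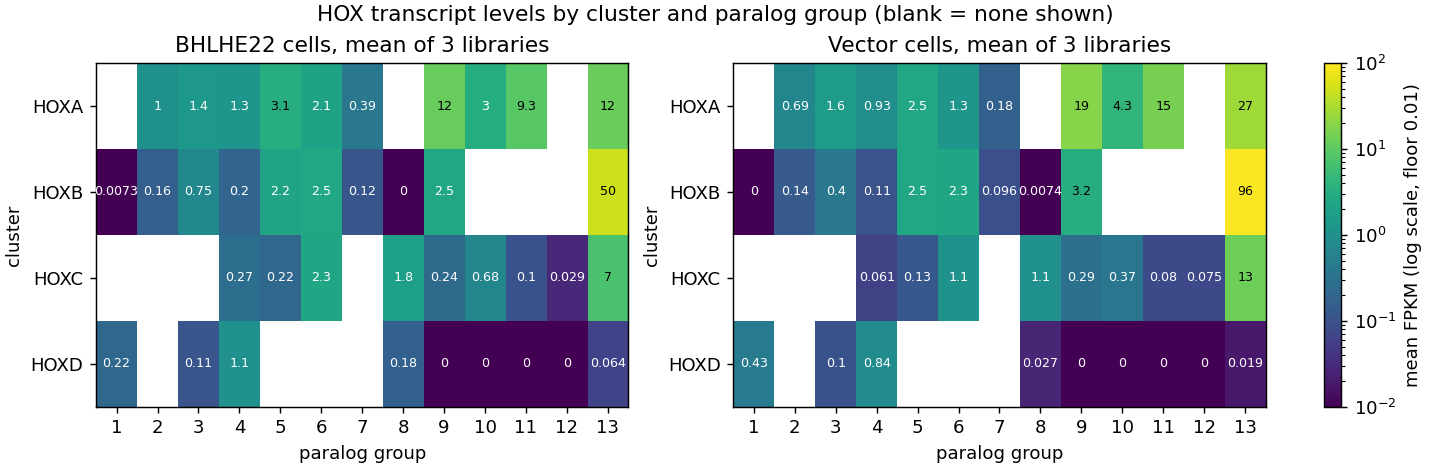
Mean FPKM of HOX genes by cluster (rows) and paralog group (columns) in BHLHE22 cells (left) and vector cells (right), 3 libraries each, on a log colour scale. The highest field is HOXB13, at 50.4 FPKM in BHLHE22 cells and 95.5 FPKM in vector cells, and HOXD9 to HOXD12 are at 0 in both.

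Of the 7 posterior HOX genes at 2 FPKM or more 6 fell in BHLHE22 cells, HOXB9 being the exception, and several low-numbered, scarce ones rose. FPKM values carry no scaling beyond the library total, while fold changes and tests use TMM-scaled counts. A gene was tested when it had enough reads for edgeR's filter on low counts. That kept 23 of the 39, and 13 of these passed at an adjusted p under 0.05: 7 higher and 6 lower. Over all genes tested, 49.4% passed, 25.1% higher and 24.3% lower, so the number of HOX genes that passed is near the background. Rises made up 50.7% of all calls, or 64.0% with unscaled library sizes, which moved the log2 fold changes up by 0.15 in the median gene. The 7 HOX rises were 4 without BHLHE22 replicate 1, 3 without BHLHE22 replicate 3 and 4 without vector replicate 2. All 6 that fell belong to groups 9 to 13: HOXA9, HOXA10, HOXA11, HOXA13, HOXB13 and HOXC13. Of the 7 that rose, 6 belong to groups 1 to 8, HOXA7, HOXB3, HOXC4, HOXC6 and HOXC8 among them, and HOXC10 is the exception. Among the 14 tested genes of groups 1 to 8, 0 fell, 6 rose and 8 did not pass, with a median log2 fold change of 0.49. Among the 9 of groups 9 to 13, 6 fell, 1 rose and 2 did not pass, with a median of -0.85, beside a median of 0.00376 over all genes tested. The normalised levels of the groups did not overlap for 15 of the 23, against 60.5% of all genes.

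Position and level went together among these genes. Of the 13 tested HOX genes with a mean under 2 FPKM over the 6 libraries, 7 rose and 0 fell, while among all tested genes under 2 FPKM 22.5% rose and 20.2% fell. Of the 10 tested HOX genes at 2 FPKM or more, 0 rose and 6 fell, while among all such genes 26.7% rose and 27% fell. HOXA5, HOXB5 and HOXB6, the 3 genes of groups 1 to 8 at 2 FPKM or more, did not pass. In groups 9 to 13 the pair under 2 FPKM was HOXC9, which did not pass, and HOXC10, which rose. The part of level in the pattern by position was not tested.

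**Figure D2:**
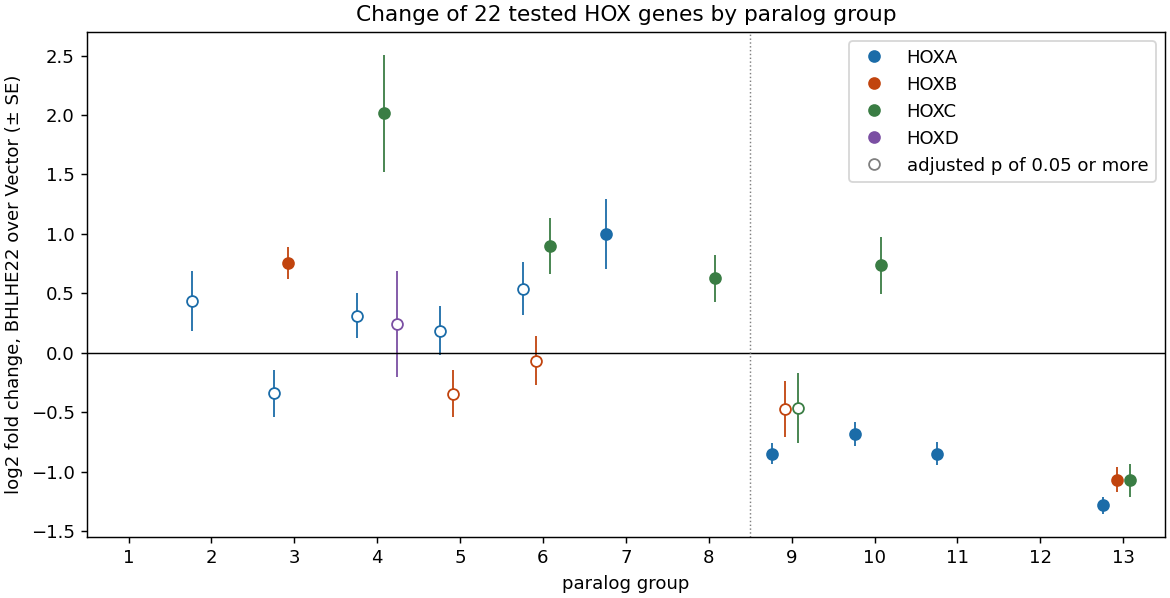
Log2 fold change of BHLHE22 over vector cells (vertical axis, ± SE from edgeR) for 22 tested HOX genes by paralog group (horizontal axis), coloured by cluster; filled points passed at an adjusted p under 0.05. The 6 genes that fell lie right of the dotted line between groups 8 and 9, at -0.68 to -1.28.

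Paralog group 13 fell in each of the 3 clusters where it was tested. HOXB13 (chromosome 17, 48724763 to 48729178) had 44.99, 48.7 and 57.6 FPKM in BHLHE22 libraries, against 92.1, 90.2 and 104 FPKM in vector libraries. The highest BHLHE22 library stayed below the lowest vector library, and the log2 fold change was -1.07 (SE 0.11, edgeR adjusted p = 0.000301), a level 2.09 times lower. HOXB13 shares no exonic base with another gene of the table.

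HOXA13 (chromosome 7, 27193503 to 27200106) showed the largest fall among the tested HOX genes. Its levels were 12, 11.9 and 12.6 FPKM in BHLHE22 libraries and 27.3, 25.8 and 27.1 FPKM in vector libraries. Both groups were tight and far apart, with a log2 fold change of -1.28 (SE 0.07, edgeR adjusted p = 3.73e-05). HOXC13, which is known for its role in hair and nail formation, had 7.89, 6.77 and 6.40 FPKM in BHLHE22 libraries, against 12.9, 14.7 and 12.2 FPKM in vector libraries. These groups also did not overlap (log2 fold change -1.07, SE 0.14, edgeR adjusted p = 0.00077). HOXD13 had 1, 3 and 2 reads in BHLHE22 libraries and 0, 2 and 0 in vector libraries, too few to test. Together the 4 genes of the group summed to 69.7 ± 6.2 FPKM in BHLHE22 cells and 136 ± 7 FPKM in vector cells (SD, n = 3 each).

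The fall extended over the whole posterior end of the HOXA cluster. HOXA9, a gene known for its part in blood stem cells and leukaemia, had 12.2, 11.8 and 10.8 FPKM in BHLHE22 libraries, against 19.4, 17.4 and 19.6 FPKM in vector libraries. HOXA11, needed for uterus and limb development, had 9.70, 8.94 and 9.23 FPKM in BHLHE22 libraries, against 16.3, 14.8 and 14.2 FPKM in vector libraries. The groups stood apart for both genes, and both log2 fold changes were -0.85 (SE 0.08 for HOXA9 and 0.09 for HOXA11, edgeR adjusted p = 0.000311 and 0.000434). HOXA10, which acts in uterus and bone formation, changed least of the 6, with 2.86, 2.85 and 3.21 FPKM in BHLHE22 libraries and 4.51, 3.97 and 4.48 FPKM in vector libraries. Its log2 fold change was -0.68 (SE 0.10, edgeR adjusted p = 0.00126). Neighbouring genes share exons here: 27% of the exonic bases of HOXA9 and 26.3% of those of HOXA10 belong to other genes too, among them HOXA10-AS and AC004080.3, and 31.1% of HOXA11 lies under HOXA11-AS on the opposite strand. The falls of all 6 posterior genes passed under each of the 14 other settings and left-out libraries tried. The other tested posterior genes were HOXB9, with log2 fold change -0.47 (SE 0.24, edgeR adjusted p = 0.133), and HOXC9, with -0.46 (SE 0.29, adjusted p = 0.223).

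**Figure D3:**
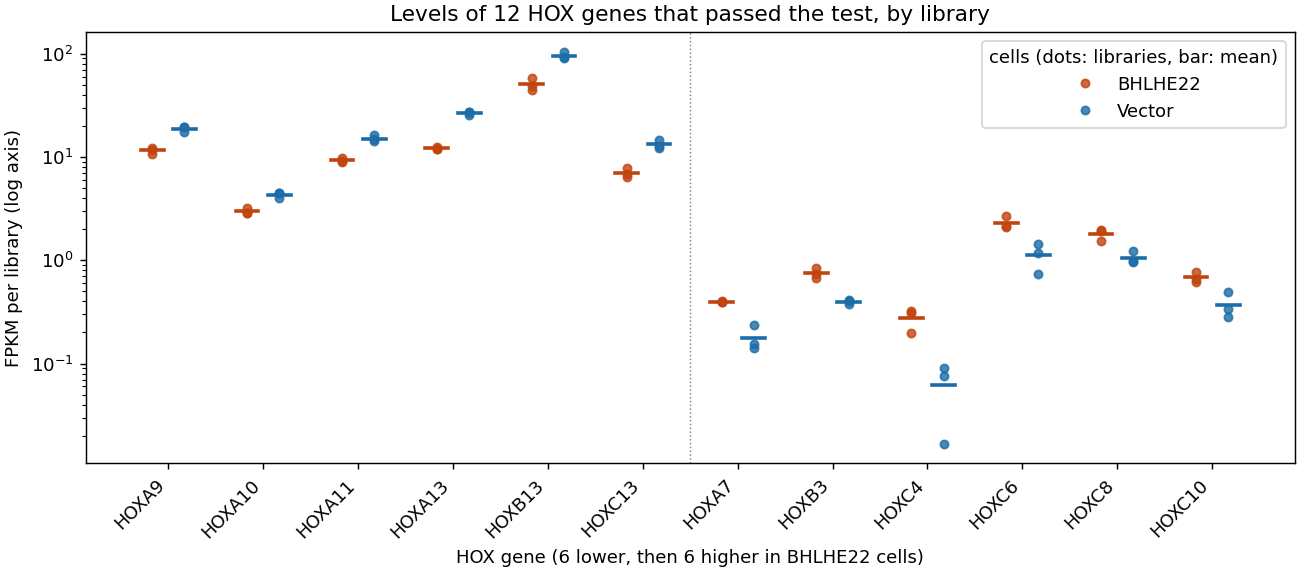
FPKM in each library (dots, log axis) and group mean (short lines) of 12 HOX genes that passed the test, BHLHE22 left of vector for each gene. No BHLHE22 library overlaps a vector library for any of the 12, but these genes were chosen by the test on the same libraries. Of all tested genes, 60.5% had no overlap in normalised levels. The 6 genes that fell lie between 2.85 and 104 FPKM and the 6 that rose at or below 2.69 FPKM.

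Among the HOXA genes that passed, the direction changed between HOXA7 and HOXA9, which are neighbours in the cluster. The HOXA7 call was lost in 7 of the 14 alternatives. The first 250 bases before the RefSeq start of HOXA7, which rose, and of HOXA9, HOXA11 and HOXA13, which fell, are shown because bHLH proteins bind the E-box, CANNTG. This pattern reads the same on both strands. The windows are in build GRCh38.p14 on the minus strand of chromosome 7, written 5′ to 3′ with each CANNTG in capitals: chr7:27156676-27156925 for HOXA7, chr7:27165538-27165787 for HOXA9, chr7:27185233-27185482 for HOXA11 and chr7:27200092-27200341 for HOXA13.
HOXA7: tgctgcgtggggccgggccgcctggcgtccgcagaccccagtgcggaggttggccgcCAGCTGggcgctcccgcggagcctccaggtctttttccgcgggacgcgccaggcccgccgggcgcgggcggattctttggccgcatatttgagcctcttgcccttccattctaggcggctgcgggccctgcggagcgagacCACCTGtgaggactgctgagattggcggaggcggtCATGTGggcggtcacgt
HOXA9: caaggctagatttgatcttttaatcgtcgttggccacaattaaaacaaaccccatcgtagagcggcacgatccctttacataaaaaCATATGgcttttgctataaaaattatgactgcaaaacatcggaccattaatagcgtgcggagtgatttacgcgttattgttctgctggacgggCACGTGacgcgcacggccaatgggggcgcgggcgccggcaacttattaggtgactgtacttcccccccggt
HOXA11: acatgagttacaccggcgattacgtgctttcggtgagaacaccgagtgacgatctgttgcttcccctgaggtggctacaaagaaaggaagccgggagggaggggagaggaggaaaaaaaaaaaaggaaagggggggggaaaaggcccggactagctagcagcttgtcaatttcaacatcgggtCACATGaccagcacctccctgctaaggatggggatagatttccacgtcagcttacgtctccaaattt
HOXA13: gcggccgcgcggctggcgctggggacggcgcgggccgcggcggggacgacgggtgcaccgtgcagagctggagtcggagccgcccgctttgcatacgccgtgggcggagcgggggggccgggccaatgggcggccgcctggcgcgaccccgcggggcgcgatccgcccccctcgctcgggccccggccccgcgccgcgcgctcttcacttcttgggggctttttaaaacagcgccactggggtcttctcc
The HOXA7 window held 3 matches, the HOXA9 window 2, the HOXA11 window 1 and the HOXA13 window 0. The windows of HOXA10, which also fell, held 0. Of HOXA genes that did not pass, HOXA4 and HOXA6 had 2 matches each, HOXA2 had 1 and the HOXA3 windows 0 to 2. Binding was not measured, and a link between matches and direction was not tested. RefSeq windows were matched for 20 of the 39 HOX genes, some with several starts, 27 windows in all. CANNTG was in 74.1% of these 27 windows and in 61.8% of 35116 windows of all genes. The form CATATG, which is counted among the CANNTG matches, was in 1 HOX window, that of HOXA9 (3.7%), and in 2.63% of all windows. The median number of CG pairs was 19 in the HOX windows and 11 in all windows, and the HOXA13 window had 40.

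The genes that rose were all scarce. HOXB3 had the firmest rise, with 0.840, 0.729 and 0.673 FPKM in BHLHE22 libraries, against 0.379, 0.412 and 0.404 FPKM in vector libraries. Every BHLHE22 library was above every vector library (log2 fold change 0.76, SE 0.14, edgeR adjusted p = 0.00305). HOXB3 takes part in hindbrain patterning and shares 13.2% of its exonic bases with other genes, HOXB6 among them. This rise passed under all 14 alternatives.

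Of the HOXC cluster, 4 of 6 tested genes rose while HOXC13 fell. HOXC6, a gene often reported as high in prostate cancer, had 2.11, 2.12 and 2.69 FPKM in BHLHE22 libraries, against 0.737, 1.18 and 1.43 FPKM in vector libraries. The vector libraries spread over a wide range but stayed lower (log2 fold change 0.90, SE 0.24, edgeR adjusted p = 0.0148, or 0.0504 without BHLHE22 replicate 3). HOXC4 had the largest fold, on few reads: 14, 10 and 19 in BHLHE22 libraries and 4, 1 and 5 in vector libraries (log2 fold change 2.01, SE 0.49, edgeR adjusted p = 0.0111). HOXC4, HOXC5 and HOXC6 share exons on the same strand, which amount to 17.8% of the exonic bases of HOXC4. HOXC8 had 1.91, 1.55 and 1.94 FPKM in BHLHE22 libraries and 1.22, 0.963 and 0.979 FPKM in vector libraries, and HOXC10 0.769, 0.622 and 0.660 FPKM in BHLHE22 libraries and 0.337, 0.280 and 0.496 FPKM in vector libraries. The libraries of the groups did not overlap for either gene, and log2 fold changes were 0.63 for HOXC8 (SE 0.20, edgeR adjusted p = 0.0308) and 0.74 for HOXC10 (SE 0.24, adjusted p = 0.0352). Leaving out a library ended the HOXC8 call for BHLHE22 replicate 1 (adjusted p = 0.0735) or 3 (0.0850) and vector replicate 2 (0.0842) or 3 (0.0754). It ended the HOXC10 call for BHLHE22 replicate 1 (0.0922), 2 (0.0625) or 3 (0.0680) and vector replicate 1 (0.102) or 2 (0.105). With DESeq2 the adjusted p was 0.122 for HOXC8 and 0.0943 for HOXC10.

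HOXA7 rested on few reads as well, with 15, 16 and 19 in BHLHE22 libraries and 10, 7 and 7 in vector libraries (log2 fold change 1.00, SE 0.29, edgeR adjusted p = 0.0232). The call ended without BHLHE22 replicate 1 (0.0534), 2 (0.0643) or 3 (0.0564), or vector replicate 2 (0.0768) or 3 (0.0626). It also ended with DESeq2 (0.147) and with the replicate number as a block (0.0512). HOXA-AS3 covers 62.5% of its exonic bases on the opposite strand and had at most 8 reads in a library. Neighbouring HOXA6 had 2.05, 2.04 and 2.07 FPKM in BHLHE22 libraries and 1.16, 0.974 and 1.71 FPKM in vector libraries, which did not overlap, but missed the threshold (log2 fold change 0.54, SE 0.22, edgeR adjusted p = 0.0788). Without vector replicate 3 it passed (adjusted p = 0.0170), and likewise with unscaled library sizes (0.0418).

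A further 7 genes reached 1 FPKM in a group without a call, at log2 fold changes of -0.34 to 0.44. HOXA5, a gene with roles in lung and breast epithelium, had 3.02, 2.98 and 3.34 FPKM in BHLHE22 libraries and 2.72, 1.74 and 3.001 FPKM in vector libraries (log2 fold change 0.19, SE 0.20, edgeR adjusted p = 0.476). HOXB6 had 2.48, 2.40 and 2.54 FPKM in BHLHE22 libraries and 2.41, 2.90 and 1.67 FPKM in vector libraries (log2 fold change -0.06, edgeR adjusted p = 0.822). The libraries of both genes lay among each other. HOXB5 had 1.89, 2.28 and 2.36 FPKM in BHLHE22 libraries and 3.10, 2.09 and 2.32 FPKM in vector libraries, and HOXA3 1.66, 1.22 and 1.24 FPKM in BHLHE22 libraries and 1.48, 1.90 and 1.31 FPKM in vector libraries. Both had a log2 fold change of -0.34 (edgeR adjusted p = 0.183 for HOXB5 and 0.186 for HOXA3). HOXA2, which patterns the second pharyngeal arch, had 1.10, 1.24 and 0.798 FPKM in BHLHE22 libraries and 0.511, 0.725 and 0.846 FPKM in vector libraries (log2 fold change 0.44, edgeR adjusted p = 0.188). HOXA4 had 1.22, 1.503 and 1.12 FPKM in BHLHE22 libraries and 1.03, 0.742 and 1.03 FPKM in vector libraries (log2 fold change 0.31, edgeR adjusted p = 0.204), and 47.3% of its exonic bases are shared with other genes. HOXD4 had 0.897, 0.972 and 1.34 FPKM in BHLHE22 libraries and 1.23, 0.300 and 0.983 FPKM in vector libraries (log2 fold change 0.24, SE 0.44, edgeR adjusted p = 0.676).

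Of the 16 genes under the low-count filter, none had more than 23 reads in a library. The groups were apart for HOXD8 and HOXD1. HOXD8 had 12, 9 and 23 reads in BHLHE22 libraries and 0, 0 and 7 in vector libraries. Without the low-count filter its edgeR adjusted p was 0.0718. With a library left out the filter kept it in 4 of the fits, where it passed without vector replicate 3, which leaves 0 reads in the vector libraries (adjusted p = 0.00609), and otherwise had an adjusted p of 0.0659 to 0.111. HOXD1 had 4, 7 and 7 reads in BHLHE22 libraries and 11, 17 and 10 in vector libraries, but 58.1% of its exonic bases are shared with antisense genes, HAGLR among them. Its edgeR adjusted p was 0.0693 without the filter, 0.0360 without vector replicate 3 and 0.0608 to 0.0943 without each of the other libraries where it was kept. The other untested genes with reads in both groups were HOXB2, HOXB4, HOXB7, HOXC5, HOXC11, HOXC12, HOXD3 and HOXD13. HOXB1 had 1 read, in a BHLHE22 library, and HOXB8 had 1, in a vector library.

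Summed over all HOX genes, levels were 116, 115 and 126 FPKM in BHLHE22 libraries and 194, 187 and 203 FPKM in vector libraries. HOXB summed to 58.8 ± 6.2 FPKM in BHLHE22 cells, against 104 ± 6 FPKM in vector cells, and HOXA had 46.0 ± 0.9 FPKM in BHLHE22 cells and 72.4 ± 3.5 FPKM in vector cells (SD, n = 3 each). HOXC had 12.7 ± 0.9 FPKM in BHLHE22 cells and 16.4 ± 1.1 FPKM in vector cells, and HOXD 1.64 ± 0.36 FPKM in BHLHE22 cells and 1.41 ± 0.37 FPKM in vector cells, where the libraries overlapped. These sums were not tested. Genes of groups 9 to 13 made up 81.2% to 81.8% of the HOX total in BHLHE22 libraries and 90.8% to 91.8% in vector libraries. Groups 1 to 8 summed to 21.8, 21.3 and 22.9 FPKM in BHLHE22 libraries, against 17.8, 15.2 and 17.3 FPKM in vector libraries, with no overlap.

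Of 18 noncoding RNAs of the clusters, 10 were tested, 5 fell, 1 rose and 4 did not pass, with a median log2 fold change of -0.49. Over all genes tested 24.3% fell and 25.1% rose. The falls numbered 2 without BHLHE22 replicate 2, and 3 without BHLHE22 replicate 3, vector replicate 1 or vector replicate 2. HOXA11-AS, antisense to HOXA11, had 0.957, 1.07 and 1.11 FPKM in BHLHE22 libraries, against 2.12, 2.17 and 2.09 FPKM in vector libraries (log2 fold change -1.17, SE 0.13, edgeR adjusted p = 0.000392). It lies over part of HOXA11, which also fell, and since no label states whether strand was kept, reads of this pair cannot be told apart. HAGLR, in the HOXD cluster, had a log2 fold change of -0.79 (edgeR adjusted p = 0.0108). It shares exonic bases with HOXD1 on the opposite strand, so the same limit holds there.

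HOXA10-AS, HOTTIP and HOTAIRM1 fell less. HOXA10-AS had a log2 fold change of -0.56 (edgeR adjusted p = 0.0204), lost without BHLHE22 replicate 2 (0.0538) or vector replicate 1 (0.0646). It shares exonic bases with HOXA9 and HOXA10, which also fell, and reads of these shared parts cannot be told apart by strand. HOTTIP, the RNA at the HOXA13 end of the cluster that is known to help keep posterior HOXA genes active, had -0.41 (edgeR adjusted p = 0.0394). HOTAIRM1, at the low-numbered end of the HOXA cluster, had -0.58 (edgeR adjusted p = 0.0383). The HOTTIP call was lost without BHLHE22 replicate 1 (0.116), 2 (0.0516) or 3 (0.0882) or vector replicate 1 (0.110) or 2 (0.106). The HOTAIRM1 call was lost without BHLHE22 replicate 2 (0.0624) or 3 (0.0897) or vector replicate 1 (0.0856), 2 (0.0609) or 3 (0.102).

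HOXD-AS2 rose. It had 0.946, 1.03 and 1.11 FPKM in BHLHE22 libraries and 0.277, 0.103 and 0.226 FPKM in vector libraries (log2 fold change 2.21, SE 0.33, edgeR adjusted p = 0.00148). Its span covers HOXD8, whose reads were given above, and HOXD9, which had 0 reads in every library. HOXD-AS2 shares no exonic base with either gene, but it shares some with HOXD3 on the opposite strand. HOXD3 was not tested and had 5, 7 and 15 reads in BHLHE22 libraries and 9, 11 and 5 in vector libraries. HOXA-AS2, HOXB-AS1, HOTAIR and HOXC13-AS did not pass, with log2 fold changes of -0.60, -0.21, -0.14 and -0.16.

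**Figure D4:**
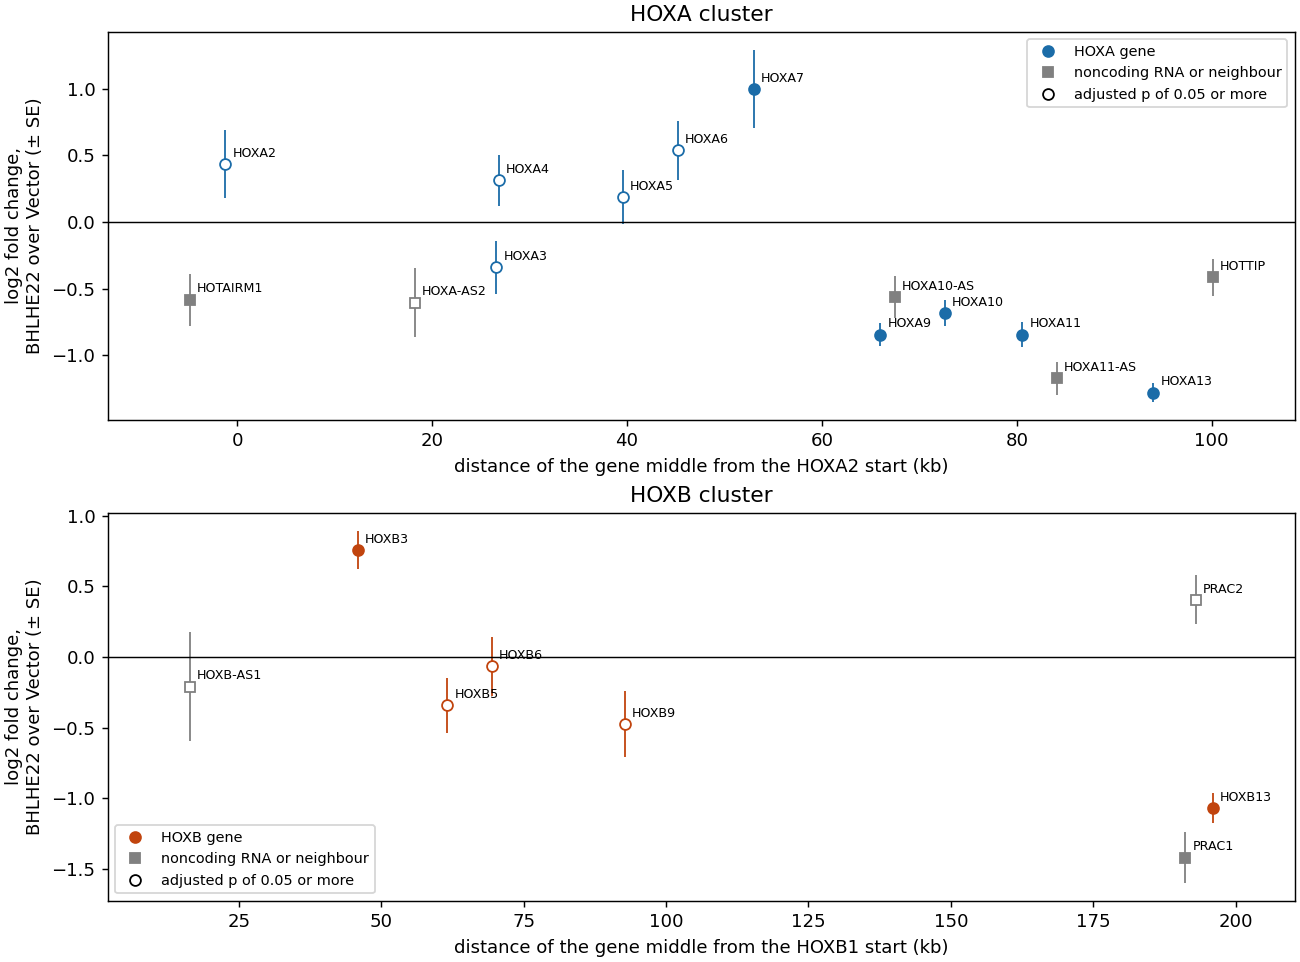
Log2 fold change of BHLHE22 over vector cells (vertical axis, ± SE from edgeR) along the HOXA and HOXB clusters, by distance of each gene's middle from the start of HOXA2 or HOXB1 in kb; circles are HOX genes, squares noncoding RNAs or neighbours, and filled symbols passed at an adjusted p under 0.05. In HOXA the filled circles change sign between HOXA7 at 1.00 and HOXA9 at -0.85, and at the HOXB13 end PRAC1 lies at -1.42 and PRAC2 at 0.41.

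Of 26 protein-coding neighbours of the clusters, 22 were tested, 7 rose, 5 fell and 10 did not pass, with a median log2 fold change of 0.25. The number that passed, 12 of 22, is near the 49.4% of all genes. PRAC1, a small gene next to HOXB13 that is expressed mainly in prostate and colon, had 78.0, 70.5 and 46.9 FPKM in BHLHE22 libraries, against 158, 158 and 156 FPKM in vector libraries (log2 fold change -1.42, SE 0.18, edgeR adjusted p = 0.000736). PRAC2, between PRAC1 and HOXB13, had 10.8, 11.3 and 8.25 FPKM in BHLHE22 libraries and 7.93, 5.80 and 6.97 FPKM in vector libraries (log2 fold change 0.41, edgeR adjusted p = 0.0887). Around HOXC, CBX5 and CALCOCO1 fell (log2 fold changes -0.88 and -1.13, edgeR adjusted p = 0.000296 and 0.000759) and SMUG1 rose by 0.68. Around HOXD, MTX2 and the more distant HNRNPA3 on the HOXD1 side rose by 0.48 and 0.68. On the HOXD13 side the distant ATP5G3 rose by 0.68, while LNPK, which lies nearer, did not pass (log2 fold change 0.17, edgeR adjusted p = 0.242). At the low-numbered side of HOXA, SKAP2 rose by 0.49, and near HOXB SNX11 rose by 0.87 while TTLL6 did not pass (-0.51). EVX1, EVX2 and SKAP1, which border HOXA13, HOXD13 and HOXB1, had too few reads to test.

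Of the TALE homeodomain partners, 8 of 11 were tested, 2 rose, 1 fell and 5 did not pass, with a median log2 fold change of 0.16, beside 49.4% of all genes that passed. MEIS1 had 0.196, 0.297 and 0.276 FPKM in BHLHE22 libraries, against 0.0840, 0.0859 and 0.132 FPKM in vector libraries (log2 fold change 1.20, SE 0.25, edgeR adjusted p = 0.00554). PBX4 rose by 0.70 (edgeR adjusted p = 0.0172, or 0.0603 without vector replicate 1). PKNOX1 fell to 0.917 ± 0.227 FPKM in BHLHE22 cells, against 1.71 ± 0.11 FPKM in vector cells (SD, n = 3 each; log2 fold change -1.05, SE 0.19, edgeR adjusted p = 0.00328). PBX3, MEIS2, TGIF1 and TGIF2 were among those that did not pass, and PBX2, MEIS3 and PKNOX2 had too few reads to test.

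Of 31 Polycomb repressor genes, 30 were tested, 11 fell, 4 rose and 15 did not pass, with a median log2 fold change of -0.36. As many passed as did not, which is near the 49.4% that passed among all genes (24.3% lower, 25.1% higher). PHC2, CBX2 and RBBP4 fell by 0.99, 1.00 and 0.64 on the log2 scale, and the accessory genes PHF1 and ASXL1 by 0.98 and 0.50, while EZH2, the H3K27 methyltransferase, rose by 0.87. Of 16 Trithorax and H3K27 demethylase genes 15 were tested, 8 fell, 5 rose and 2 did not pass, with a median of -0.32, beside 49.4% of all genes that passed (24.3% lower, 25.1% higher). Of this list, ASH1L, KMT2D, KMT2C and KMT2E fell by 0.92, 0.75, 0.74 and 0.51. RBBP5 fell by 0.35, with an edgeR adjusted p of 0.00645, or 0.0568 with unscaled library sizes, and PSIP1 rose by 0.48. The Polycomb count of rises was 2 without BHLHE22 replicate 3 or vector replicate 2. The Trithorax count of rises was 2 without BHLHE22 replicate 2 or 3 or vector replicate 1 or 2, and its count of falls was 5 without vector replicate 2.

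Among 21 genes of retinoic acid signalling and CDX factors, 10 were tested, 6 fell, 1 rose and 3 did not pass, with a median log2 fold change of -0.46. Among all genes tested, 49.4% passed and 24.3% fell. CRABP1, a cytoplasmic retinoic acid binding protein, fell to 7.90 ± 1.25 FPKM in BHLHE22 cells, against 34.7 ± 1.1 FPKM in vector cells (SD, n = 3 each; log2 fold change -2.29, SE 0.13, edgeR adjusted p = 4.4e-05). RDH10, which makes retinal from retinol, and DHRS3, which reverses that step, fell by 1.34 and 0.59, the receptor genes RXRA and RARG by 0.46 each, and the scarce synthesis gene ALDH1A2 by 1.37. The gene that rose was ALDH1A3, which makes retinoic acid and had 311 ± 8 FPKM in BHLHE22 cells and 201 ± 46 FPKM in vector cells (SD, n = 3 each; edgeR adjusted p = 0.0206). That call was lost without BHLHE22 replicate 3 (0.0615) or vector replicate 1 (0.0595). CDX1, CDX2 and CDX4, which activate central HOX genes in embryos, could not be tested.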

How the data were processed

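RNA was measured in 3 libraries each of PC-3 cells with BHLHE22 lentivirus and with blank lentivirus. The authors deposited whole-number read counts per gene and FPKM values in 1 table, with gene positions on GRCh38. Tools listed in the submitters' processing notes were HISAT2 2.1.0, StringTie 1.3.4b, CASAVA 1.8 and edgeR, with no roles; counting options and strand are also not given in the sources. The FPKM values equal the count divided by 1 length per gene and by the total of the library, within 0.1% for 100% of 26866 genes, and carry no further scaling. Columns headed control were taken as vector libraries.

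Counts of all genes were fitted with edgeR 4.0.16 (R 4.3.3): filterByExpr, which kept 15945 genes, trimmed mean of M-values (TMM) scaling, quasi-likelihood test with robust dispersions, 2-sided, Benjamini-Hochberg adjustment over all tested genes. SE is the log2 fold change divided by the square root of F. The procedure was also run on simulated data in which far fewer genes changed than passed here. That run therefore does not show how the procedure behaves in these data. Exon overlap came from GENCODE release 29, which gives the same position for 97.4% of shared genes.

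All 39 members are in the counts; some genes are not reported here by name. Named were members that passed or had a mean of 1 FPKM in a group, and of each list up to 6 that passed, the partners, the cluster RNAs and the genes bordering a cluster. Members and lists were chosen with earlier results of these data known. Alternatives were DESeq2 1.42.0, limma-voom (limma 3.58.1), other scalings, filters and moderation, the replicate number as a block, and each library left out. Where 2 libraries are left in a group, the spread is pooled over the rest.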

Additional observations from a re-analysis of the deposited data

How the results depend on the processing

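The 6 falls of posterior HOX genes held under every alternative run. With single libraries left out the count of HOX falls was 6 to 7. The further fall was that of low-numbered HOXD1, without vector replicate 3 (edgeR adjusted p = 0.0360). The count of 7 rises was 3 to 7 with a library left out. Without vector replicate 3 it was again 7, but not of the same genes. There HOXA7 (edgeR adjusted p = 0.0626) and HOXC8 (0.0754) were lost, while HOXA6 (0.0170) and HOXD8 (0.00609) passed. The count of rises was 4 with DESeq2, 4 with the replicate block and 1 at an adjusted p under 0.01. Same-numbered libraries did not deviate together (correlations of -0.017 to 0.029 over genes), so the numbers give no pairing; beside that count the block moved the falls of cluster RNAs to 3 and the rises of Trithorax genes to 3. Unscaled library sizes moved the log2 fold changes up by 0.15 in the median gene and gave 64.0% rises among all calls, against 50.7%. The cluster RNAs then had 2 falls, the Trithorax list 5 falls and the retinoic acid list 3 rises. DESeq2 gave 3 falls of cluster RNAs and 3 rises of Trithorax genes, and no low-count filter also gave 3 rises of Trithorax genes. With a library left out, cluster RNAs had 2 to 4 falls, TALE partners 1 to 3 rises, Polycomb genes 2 to 4 rises, Trithorax genes 2 to 4 rises and 5 to 9 falls, and retinoic acid genes 0 to 1 rise. Dividing FPKM by the TMM factor gave ratios of 0.574 for the HOXA sum (0.635 as deposited) and 0.695 for HOXC (0.770).

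Signs turned only for genes that had not passed. With unscaled sizes HOXB6 had 0.0886 and HOTAIR 0.0131. With a library left out the log2 fold change of HOXA5 ran from -7.84e-05 to 0.34, HOXB6 from -0.26 to 0.15, HOXD4 from -0.16 to 0.63, TGIF1 from -0.0924 to 0.43, MEIS2 from -0.0035 to 0.26, HOTAIR from -0.45 to 0.10, HOXB-AS1 from -0.51 to 0.0458 and HOXC13-AS from -0.32 to 0.0635. Reads limit the scarce genes: HOXC4 had 53 reads in all and HOXA7 74.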
